A study of Rattus norvegicus with 24 samples.

Results

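The genes described here encode the beta subunits of the Na,K-ATPase and the FXYD proteins that bind to it. They are Atp1b1, Atp1b2, Atp1b3, Fxyd1, Fxyd2, Fxyd4 and Fxyd5, 7 of the 36856 genes in the data. The 7 were named from the family, with earlier results of these data known. Atp1b4, Fxyd3, Fxyd6 and Fxyd7 of the same family were read as a separate list. RNA was sequenced in 24 libraries from rat kidney inner medulla and heart ventricle, with 4 rats in each of 6 groups. Kidney inner medulla came from 4 groups of Sprague-Dawley rats, all fed a synthetic diet for 7 days: rats infused with aldosterone at 12 µg per day by an osmotic minipump while on 0.4% Na, controls on 0.4% Na, rats on low salt (0.01 to 0.02% Na) and rats on high salt (0.4% Na). Heart ventricle came from a low-salt and a high-salt group on the same diets. The 0.4% Na diet is thus a control diet in the protocol and is called high salt in the sample titles. Whether controls carried a pump, and whether kidney and heart came from the same rats, is not given in the labels.

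The Na,K-ATPase pumps Na out of cells and K in, and so powers Na reabsorption along the nephron and relaxation and repolarisation in heart muscle. Its catalytic alpha subunit needs a glycosylated beta subunit to fold and reach the plasma membrane. FXYD proteins are small membrane proteins that bind the alpha-beta pair and tune its affinity for Na and K, each in its own set of tissues. Aldosterone is known to raise the pump's abundance in the cortical collecting duct, and Fxyd4 was first described as a corticosteroid hormone-induced factor (CHIF) of the kidney and colon.

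Promoter windows from RefSeq (GRCr8 assembly, 250 bases before to 50 after the start of the gene) are shown for the FXYD genes with opposite tissue patterns below, Fxyd1 and Fxyd4, and for Atp1b2, the gene called on low salt. Sequences read 5′ to 3′ on the strand of the gene, and capitals mark matches on either strand to the GC box GGGCGG, the CCAAT box CCAAT, the TATA box TATAAA and the half-site AGAACA that corticosteroid receptors can bind. The windows lie on the minus strand at chr1:95418531-95418830 for Fxyd1, chr4:152785996-152786295 for Fxyd4 and chr10:54823659-54823958 for Atp1b2.
Fxyd1: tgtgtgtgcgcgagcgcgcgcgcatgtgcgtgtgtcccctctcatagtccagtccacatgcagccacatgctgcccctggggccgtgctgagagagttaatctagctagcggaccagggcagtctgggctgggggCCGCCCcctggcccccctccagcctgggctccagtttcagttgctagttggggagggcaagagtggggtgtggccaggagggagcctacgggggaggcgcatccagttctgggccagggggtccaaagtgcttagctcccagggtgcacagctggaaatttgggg
Fxyd4: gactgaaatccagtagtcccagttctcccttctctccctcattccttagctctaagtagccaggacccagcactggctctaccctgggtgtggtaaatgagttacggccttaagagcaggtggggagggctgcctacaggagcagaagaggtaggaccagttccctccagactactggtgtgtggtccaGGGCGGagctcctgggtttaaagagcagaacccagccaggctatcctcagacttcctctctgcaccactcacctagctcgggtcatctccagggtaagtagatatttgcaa
Atp1b2: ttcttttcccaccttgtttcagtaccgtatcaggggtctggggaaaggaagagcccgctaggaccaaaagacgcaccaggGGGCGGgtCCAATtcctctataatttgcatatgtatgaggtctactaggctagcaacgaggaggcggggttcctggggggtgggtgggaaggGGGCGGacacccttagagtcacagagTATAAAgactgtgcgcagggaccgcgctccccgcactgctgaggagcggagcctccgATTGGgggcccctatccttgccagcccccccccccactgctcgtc
The Fxyd1 and Fxyd4 windows held 1 GC box each and no other match, whereas the Atp1b2 window held 2 GC boxes, 2 CCAAT boxes and 1 TATA box. Of all 33469 windows of this length in the table, 33.1% held a GC box, 37.5% a CCAAT box, 14.2% a TATA box and 20.7% the half-site. No half-site lay in any window of the 5 genes that matched the table (Atp1b2, Atp1b3, Fxyd1, Fxyd4 and Fxyd5), which says only that these letters are not in these windows. GC made up 65.3% of the Fxyd1 window, 54.7% of the Fxyd4 window and 60.3% of the Atp1b2 window, against a median of 51.7%. In the same annotation Fxyd5, Fxyd7 and Fxyd1 are neighbours on chromosome 1, and Fxyd6 and Fxyd2 on chromosome 8.

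Libraries held 24299423 to 38318764 counts, so that 1 CPM (counts per 1000000) stands for at least 24 counts. The labels describe the rats as female, and the expression of sex-linked genes differed between the experiments. Xist, the RNA of X inactivation in females, reached 451 CPM among the 8 aldosterone and control libraries and at most 0.0932 CPM in the 16 low-salt and high-salt libraries, where 4 Y-linked genes summed to 148 to 276 CPM, against 0.034 to 0.32 CPM in the other 8. By these genes the 16 low-salt and high-salt libraries read as male, against the label, and the other 8 as female. Each comparison within an experiment thus stays within 1 pattern. The test of aldosterone against low salt sets both patterns against each other, and sex and experiment cannot be told apart in it. The 7 collecting duct markers summed to 9936 to 16083 CPM in inner medulla and the 7 ventricular cardiomyocyte markers to at most 5.88 CPM in medulla, against 69990 to 88892 CPM in ventricle. The medulla libraries also held markers of other tubule segments. Those of the thick ascending limb (6 genes) summed to 1357 to 5921 CPM and those of the proximal tubule (7 genes) to 162 to 967 CPM. Batch 1 (replicates 1 and 2) of the ventricle held kidney tubule transcripts: 7 proximal tubule markers summed to 40.5 to 171 CPM there and to 0.681 to 1.88 CPM in batch 2. The tissue differences of Fxyd1, Fxyd2 and Fxyd4 are given with and without those libraries. In bulk tissue, fewer cells of a type and less RNA per cell cannot be told apart.

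Medulla and ventricle differed in the makeup of their FXYD counts. The summed share of Fxyd2 and Fxyd4 in the counts of all 7 FXYD genes with counts (Fxyd1 to Fxyd7) was 96.8 to 98.8% in the 16 medulla libraries and 0.629 to 7.55% in the 8 ventricle libraries. The share of Fxyd1 was 0.0104 to 0.0558% in medulla and 83.1 to 93.5% in ventricle. Shares of counts depend on transcript length, which was not used here, so a share is compared between libraries and not between genes.

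**Figure D1:**
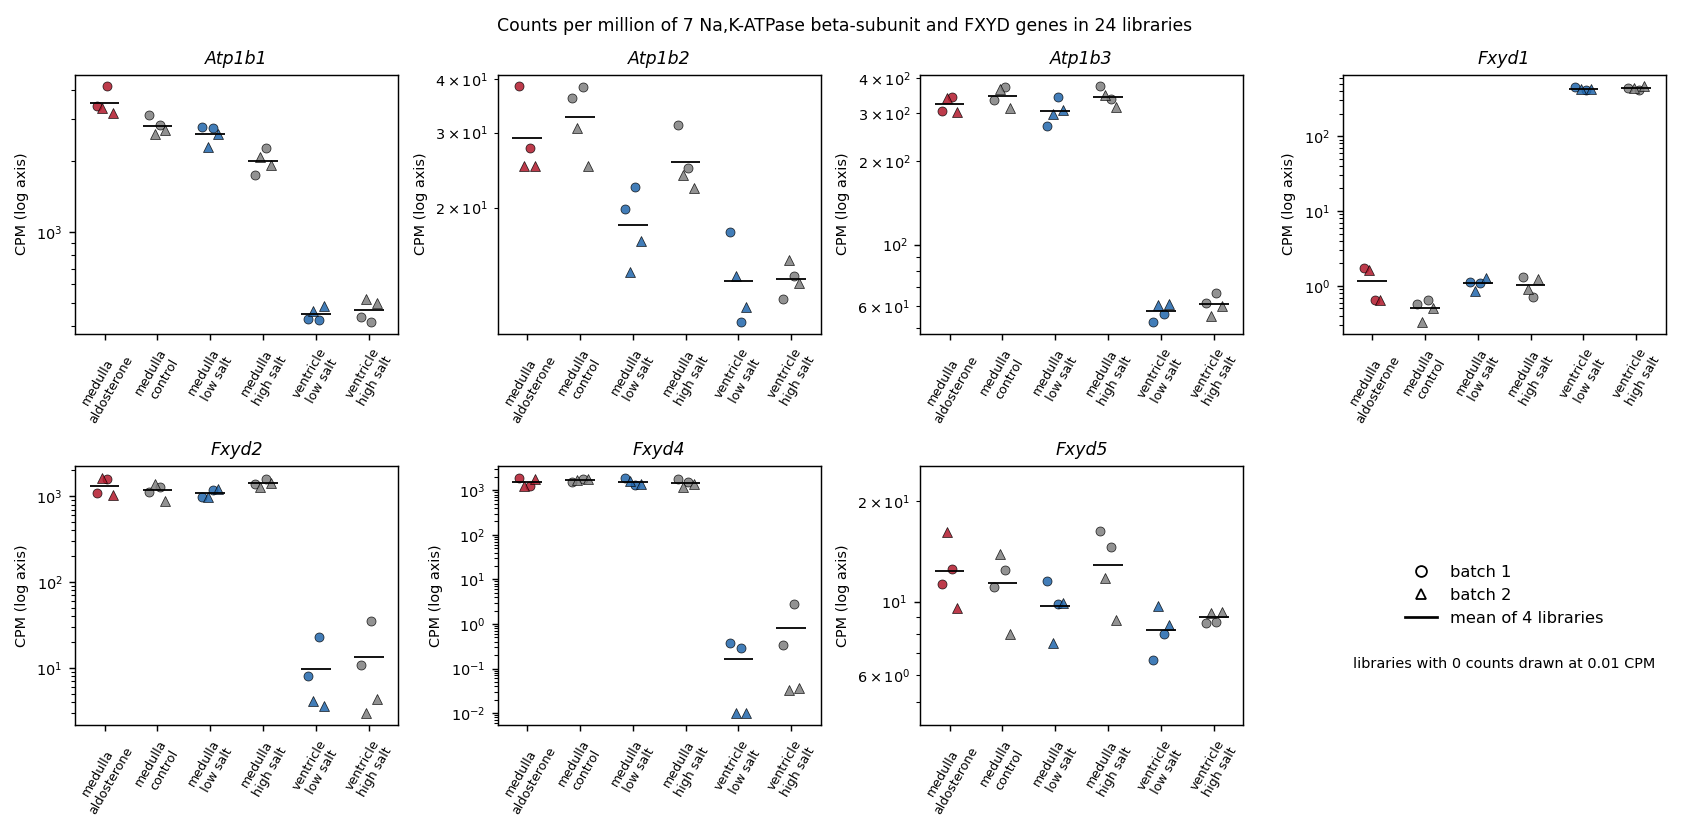
CPM (log axis) of the 7 genes in each library, by group, with circles for batch 1, triangles for batch 2 and a line at the mean of 4 libraries. Fxyd1 stands at no more than 1.71 CPM in medulla and at 412 to 463 CPM in ventricle, and Fxyd4 shows the opposite pattern, at 1207 to 1934 CPM in medulla and at most 2.83 CPM in ventricle.

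Atp1b1 encodes the beta subunit of most epithelia and of heart muscle. On high salt its level was 1741, 2272, 2081 and 1927 CPM in the 4 medullas, against 435, 417, 519 and 500 CPM in the 4 ventricles, without overlap. After scaling to the composition of each library (TMM, the trimmed mean of M values) Atp1b1 was 2.31-fold higher in medulla than in ventricle (log2 1.21 ± 0.12 SE, edgeR adjusted p = 1.11e-05). Of all 18175 genes tested, 77.8% passed in this comparison, so a call is the rule here and says little about a gene by itself. Of the 7 genes, 5 passed: Atp1b1, Atp1b3, Fxyd2 and Fxyd4 were higher in medulla, as were 41.1% of all genes, and Fxyd1 was lower, as were 36.7%. DESeq2 called 77.6% of its genes. In plain CPM 5 of the 7 were higher without overlap, as were 62.5% of all genes, and 1 was lower, as were 19.3%. The median log2 fold change of the 7 was 1.21, beside 0.13 over all genes tested.

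Atp1b3, a beta subunit found in many tissues, was at 374, 337, 347 and 316 CPM in medulla and at 61.7, 66.8, 55.2 and 60 CPM in ventricle on high salt. It was 3.04-fold higher in medulla (log2 1.60 ± 0.08 SE, edgeR adjusted p = 7.7e-08). Atp1b2, known in glia as the adhesion molecule AMOG, was at 31.3, 24.8, 23.8 and 22.2 CPM in medulla and 12.2, 13.8, 15.1 and 13.3 CPM in ventricle. These CPM values do not overlap either, but the TMM-scaled difference of Atp1b2 was 0.01 ± 0.12 (log2, SE; edgeR adjusted p = 0.931). Scaling decides that value: with library size alone the median of all genes stood at 1.02 instead of 0.13, and Atp1b2 was then higher in medulla by 0.91 (log2, edgeR adjusted p = 9.24e-05). Between the low-salt libraries of the tissues Atp1b2 was lower in medulla by TMM (log2 -0.50, edgeR adjusted p = 0.0374).

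Of the summed counts of the 3 beta genes Atp1b1 took 84.3% ± 2.23 in medulla and 86.1% ± 1.89 in ventricle on high salt (SD, n = 4 each), and the ranges of 81.1 to 86.3% and 83.8 to 88.1% overlapped. On low salt the Atp1b1 ranges did not overlap, with 88.1 to 90.6% in medulla, against 85.9 to 87.0% in ventricle. Atp1b2 on high salt took 1.09% ± 0.248 in medulla and 2.51% ± 0.195 in ventricle, with no overlap (0.94 to 1.46% against 2.33 to 2.77%). Shares within a library do not depend on the scaling between libraries. Summed over the 3 beta genes, medulla held 2147 to 2634 CPM and ventricle 498 to 590 CPM on high salt.

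Fxyd1 encodes phospholemman, the FXYD protein of heart and skeletal muscle and a target of protein kinases A and C. On high salt it was at 1.33, 0.705, 0.911 and 1.23 CPM in medulla, which is 27 to 49 counts a library, against 436, 418, 443 and 463 CPM in ventricle. The log2 fold change was -9.61 ± 0.21 (SE, edgeR adjusted p = 9.28e-10). Of the summed counts of Fxyd1, Fxyd2, Fxyd4 and Fxyd5, the base of the other FXYD shares below, Fxyd1 made up at most 0.0565% in the 16 medulla libraries and 90 to 97.3% in the ventricle libraries of both diets. With Fxyd3, Fxyd6 and Fxyd7 in the sum it is the 83.1 to 93.5% given above, since Fxyd6 alone made up 3.2 to 6.4% there. Its spread over ventricle libraries was small, with a coefficient of variation of 4.18% on low salt and 4.27% on high salt.

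Fxyd2, the gamma subunit of the renal pump, is best known from the thick ascending limb and proximal tubule, and Fxyd4 from the collecting duct. On high salt Fxyd2 was at 1400, 1579, 1296 and 1410 CPM in medulla, against 10.9, 35.1, 2.97 and 4.34 CPM in ventricle. Fxyd4 was at 1831, 1556, 1207 and 1360 CPM in medulla, against 0.331, 2.83, 0.0336 and 0.0358 CPM in ventricle. Neither gene overlapped between the tissues, and both passed the test, Fxyd2 57.9-fold higher in medulla (log2 5.86 ± 0.76 SE, edgeR adjusted p = 7.52e-05) and Fxyd4 974-fold higher (log2 9.93 ± 0.95 SE, edgeR adjusted p = 8.33e-06). Both folds depend on replicate 2 of the high-salt ventricles, and without it they are 6.96 for Fxyd2 and 12.54 for Fxyd4 on the log2 scale.

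The ventricle values of both genes followed the batch that held tubule transcripts. Over both diets Fxyd4 had 113 counts in the 4 ventricle libraries of batch 1, or 1.01 CPM (95% interval 0.833 to 1.22, exact Poisson, counting error only). In the 4 of batch 2 it had 2 counts, or 0.0166 CPM (0.00201 to 0.0598). Fxyd2 was at 19.9 CPM (19.0 to 20.7) in batch 1 and at 3.76 CPM (3.42 to 4.12) in batch 2. The 6 thick ascending limb markers summed to 3.76 to 121 CPM in batch 1 and to 1.11 to 2.45 CPM in batch 2, and the 7 collecting duct markers to 3.31 to 45.0 and 1.45 to 1.72 CPM. The part of these transcripts in the ventricle values of Fxyd2 and Fxyd4 was not tested. With batch 1 of the ventricles left out, an alternative added after the data had been seen, Fxyd2 was higher in medulla by 7.70 ± 0.24, Fxyd4 higher by 14.39 ± 0.38 and Fxyd1 lower by -9.67 ± 0.21 (log2, SE; edgeR). The Fxyd4 value then rests on 2 ventricle counts and depends on the fit's prior count. In plain CPM the mean of Fxyd4 in high-salt medulla was 42906-fold that of these 2 ventricle libraries, with an interval of 11878 to 354293 from the ventricle counts alone (95%, exact Poisson, counting error only).

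**Figure D2:**
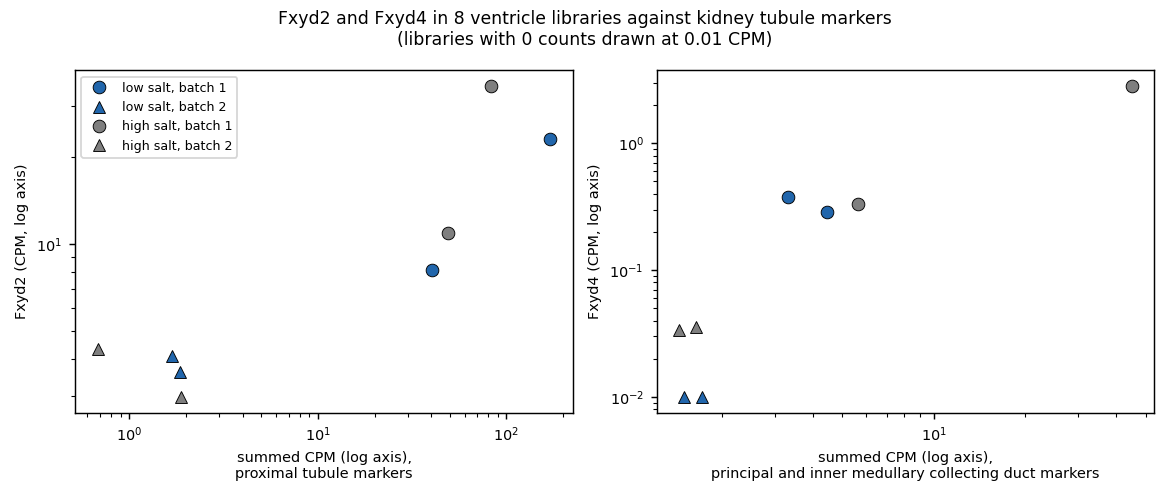
CPM of Fxyd2 against the summed CPM of 7 proximal tubule markers (left) and of Fxyd4 against that of 7 principal and inner medullary collecting duct markers (right), all log axes, in the 8 ventricle libraries, by diet (colour) and batch (circle or triangle). The 4 libraries of batch 1 stand apart from the 4 of batch 2 on every axis, and high-salt replicate 2 is highest for both genes.

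Fxyd5, known as dysadherin and a modulator of cell adhesion, was at 16.3, 14.6, 11.8 and 8.82 CPM in medulla and 8.65, 8.68, 9.26 and 9.32 CPM in ventricle on high salt. The groups overlap, and the TMM-scaled difference did not pass (log2 -0.38 ± 0.18 SE, edgeR adjusted p = 0.0784). Without replicate 1 of the high-salt medullas it passed, with a log2 fold change of -0.49 and an edgeR adjusted p of 0.0328. It also passed with the batch number as a term (log2 -0.40, edgeR adjusted p = 0.0484) and between the low-salt libraries of the tissues (log2 -0.70, edgeR adjusted p = 0.00267). Under library size alone Fxyd5 was instead higher in medulla (log2 0.52, edgeR adjusted p = 0.0241).

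**Figure D3:**
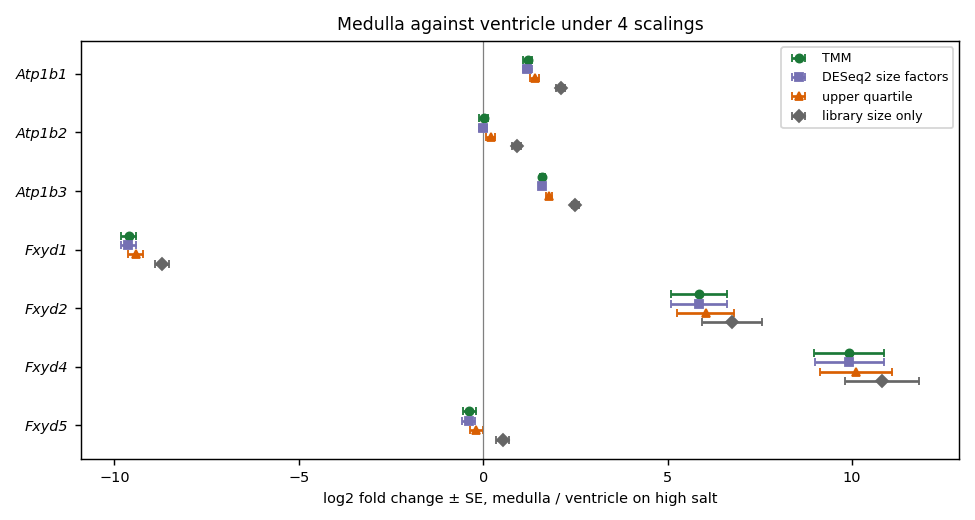
Log2 fold change with SE of each gene between medulla and ventricle on high salt (4 libraries each) under 4 scalings. Atp1b1, Atp1b3, Fxyd1, Fxyd2 and Fxyd4 keep their side of 0 under all 4, and Fxyd5 moves to -0.38 under TMM and 0.52 under library size alone.

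Dietary Na restriction raises plasma aldosterone, and the low-salt comparison asks how the medulla responds to it. Among the 7 genes, Atp1b2 was lower on low salt by the main test, and the others did not pass. Atp1b1 and Fxyd2 separated the diets without overlap, Atp1b1 with the low-salt libraries above and Fxyd2 with them below, but their adjusted p-values missed the threshold. Of 18449 genes tested, 2.46% passed in either direction and 1.37% were lower. Log2 fold changes were positive for 3 and negative for 4 of the 7 genes, with a median of -0.20, beside -0.003 over all genes tested. At an unadjusted p under 0.05 there were 5 of the 7, where 19.6% of all genes passed.

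Atp1b1 was at 2780, 2750, 2289 and 2596 CPM in medulla on low salt and at 1741, 2272, 2081 and 1927 CPM on high salt. The lowest low-salt library lay just above the highest high-salt library (2289 against 2272 CPM). Of all genes tested, 5.65% were higher without overlap in the same way. The edgeR estimate was 0.36 ± 0.11 (log2, SE), 1.28-fold, with an adjusted p of 0.129, and DESeq2, which called 10.6% of its genes here, gave an adjusted p of 0.0122. Within batches, the difference of mean log2 CPM was 0.48 in batch 1 and 0.28 in batch 2. Slc14a2, the urea transporter of inner medullary collecting duct and thin limb, was at 892 to 1251 CPM on low salt, against 1540 to 2385 CPM on high salt, without overlap. The 7 collecting duct markers, Slc14a2 among them, summed to 9936 to 13340 CPM on low salt, against 11471 to 14215 CPM on high salt, with overlap. Aqp3, Aqp4, Hsd11b2 and Gata3 of that list ranged higher on low salt, and Aqp2 and Avpr2 lower, all with overlap. Hsd11b2, for 1, was at 339 to 790 CPM, against 306 to 394 CPM. The part of tubule makeup in the Atp1b1 values was not tested.

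Atp1b2 was at 19.9, 22.3, 14.1 and 16.7 CPM on low salt, against 31.3, 24.8, 23.8 and 22.2 CPM on high salt. Replicate 2 on low salt and replicate 4 on high salt meet at about the same level, and the other libraries are separate. The log2 fold change was -0.51 ± 0.10 (SE, edgeR adjusted p = 0.0474). This call rests on all 8 libraries: leaving out any of them gave adjusted p-values of 0.0704 to 0.122 with log2 fold changes of -0.58 to -0.45. It was also lost with edgeR with no filter (adjusted p = 0.052), with no batch term (0.138) and with the replicate as a block (0.107). DESeq2 gave an adjusted p of 0.000796. Each batch alone gave the same direction, with differences of mean log2 CPM of -0.39 and -0.57 and edgeR adjusted p-values of 0.333 and 0.14.

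Atp1b3 was at 268, 341, 296 and 308 CPM on low salt, against 374, 337, 347 and 316 CPM on high salt, with overlap, and did not pass (log2 -0.20 ± 0.08 SE, edgeR adjusted p = 0.242). The makeup of the counts of the 3 beta genes separated the diets. Atp1b1 took 90.6, 88.3, 88.1 and 88.9% of them on low salt, against 81.1, 86.3, 84.9 and 85.1% on high salt, and the ranges do not overlap. Means were 89.0% ± 1.14 on low salt and 84.3% ± 2.23 on high salt (SD, n = 4 each), and no test was planned for shares.

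**Figure D4:**
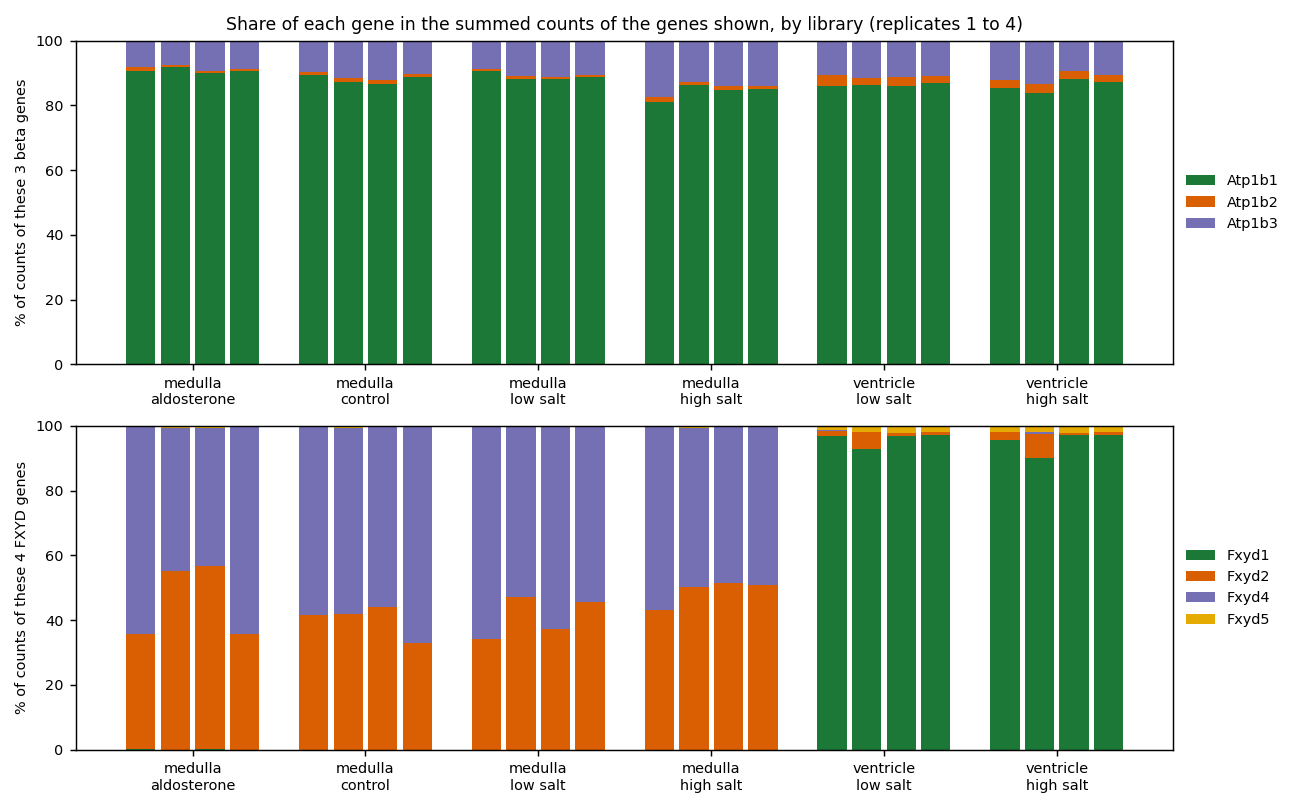
Percent of the summed counts of Atp1b1, Atp1b2 and Atp1b3 (top) and of Fxyd1, Fxyd2, Fxyd4 and Fxyd5 (bottom) by gene in each library, replicates 1 to 4 of each group. The Atp1b1 share is 88.1 to 90.6% in low-salt medulla and 81.1 to 86.3% in high-salt medulla, and Fxyd1 takes at most 0.0565% of the lower sum in medulla and 90 to 97.3% in ventricle. Fxyd3, Fxyd6 and Fxyd7 are not in the sum.

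Fxyd2 was at 983, 1174, 969 and 1198 CPM in medulla on low salt and at 1400, 1579, 1296 and 1410 CPM on high salt. The groups do not overlap, which 5.92% of all genes tested showed in this direction. The estimate missed the threshold with edgeR (log2 -0.41 ± 0.10 SE, adjusted p = 0.0793) and passed it with DESeq2 (adjusted p = 0.00291). Markers of the thick ascending limb, 1 source of Fxyd2, overlapped between the diets, with a sum of 1997 to 3730 CPM on low salt, against 1733 to 3016 CPM on high salt. The 5 thin limb markers summed to 2276 to 3108 CPM on low salt, against 3515 to 3950 CPM on high salt, without overlap, and their part in the Fxyd2 values was not tested.

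Fxyd4 was at 1898, 1303, 1624 and 1422 CPM on low salt, against 1831, 1556, 1207 and 1360 CPM on high salt, overlapping throughout (log2 0.07 ± 0.15 SE, edgeR adjusted p = 0.835). Fxyd2 made up 41.0% ± 6.38 of the counts of the 4 FXYD genes on low salt, against 48.9% ± 3.89 on high salt (SD, n = 4 each), with overlapping ranges. Fxyd5 was at 11.5, 9.86, 7.49 and 9.89 CPM on low salt, against 16.3, 14.6, 11.8 and 8.82 CPM on high salt (log2 -0.40 ± 0.15 SE, edgeR adjusted p = 0.181). Fxyd1 stayed near 1 CPM, at 0.846 to 1.26 CPM on low salt, against 0.705 to 1.33 CPM on high salt (edgeR adjusted p = 0.951).

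Aldosterone at 0.4% Na asks what the hormone does without a change of diet. No gene passed with edgeR in this comparison: 0 of 17671 genes had an adjusted p under 0.05 (percent called 0), and 1750, or 9.90%, an unadjusted p under 0.05, among them 2 members, Atp1b1 and Fxyd1. DESeq2 called 2.34% of its genes, among them Atp1b1. Log2 fold changes were positive for 4 and negative for 3 of the 7 genes, with a median of 0.12, beside 0.004 over all genes tested.

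Atp1b1 was at 3408, 4136, 3336 and 3175 CPM with aldosterone, against 3126, 2840, 2589 and 2694 CPM in controls. All 4 aldosterone libraries lay above all 4 controls, as for 3.70% of all genes tested, while 1.65% were lower without overlap. Its mean was 3514 CPM with aldosterone and 2813 CPM in controls, with coefficients of variation of 12.1% and 8.29% (n = 4 each). The edgeR estimate was 0.31 ± 0.10 (log2, SE; adjusted p = 0.382) and DESeq2 gave an adjusted p of 0.0255. The Atp1b1 share in the counts of the 3 beta genes was 90.8, 91.8, 90.1 and 90.7% with aldosterone and 89.4, 87.4, 86.7 and 88.9% in controls, without overlap. Slc14a2 was at 1107 to 1429 CPM with aldosterone, against 1325 to 1924 CPM in controls. The 7 collecting duct markers summed to 10968 to 16083 CPM, against 13061 to 15844 CPM, and thick ascending limb markers to 2802 to 5921 CPM, against 1357 to 3151 CPM. All of these overlap, and their part in the Atp1b1 values was not tested.

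Atp1b2 and Atp1b3 overlapped between aldosterone and control libraries. Atp1b2 was at 38.5, 27.6, 25.1 and 25 CPM with aldosterone, against 36.2, 38.4, 30.7 and 25 CPM in controls (log2 -0.18 ± 0.12 SE, edgeR adjusted p = 0.668). Atp1b3 was at 305, 342, 340 and 301 CPM with aldosterone, against 335, 372, 366 and 312 CPM in controls (log2 -0.11 ± 0.09 SE, edgeR adjusted p = 0.718).

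Fxyd1, the muscle form, was at 1.71, 0.653, 1.63 and 0.658 CPM with aldosterone, against 0.578, 0.645, 0.332 and 0.5 CPM in controls. The aldosterone libraries were above the controls without overlap, by a margin of 18 against 19 counts in the closest pair of libraries. The estimate was 1.20 ± 0.42 (log2, SE; edgeR adjusted p = 0.408), from 10 to 50 counts a library. In ventricle the same gene had 11493 to 14063 counts a library.

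Fxyd2 was at 1084, 1569, 1648 and 1023 CPM with aldosterone, against 1128, 1280, 1389 and 868 CPM in controls. Fxyd4 was at 1934, 1266, 1246 and 1821 CPM with aldosterone, against 1572, 1759, 1748 and 1758 CPM in controls. Neither gene separated the groups, and within the aldosterone group they ran opposite ways: replicates 2 and 3 were high in Fxyd2 and low in Fxyd4, and replicates 1 and 4 the reverse. Their thick ascending limb markers summed to 2936, 5487, 5921 and 2802 CPM in replicates 1 to 4, which is the order of Fxyd2. The same sum was 2882, 3151, 3050 and 1357 CPM in controls, where replicate 4 was lowest in both. The part of tubule makeup in these values was not tested. The estimates were 0.18 ± 0.22 for Fxyd2 (edgeR adjusted p = 0.81) and -0.14 ± 0.16 for Fxyd4 (edgeR adjusted p = 0.816), log2 with SE. Fxyd5 was at 9.59 to 16.2 CPM with aldosterone, against 7.99 to 13.9 CPM in controls (edgeR adjusted p = 0.89).

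**Figure D5:**
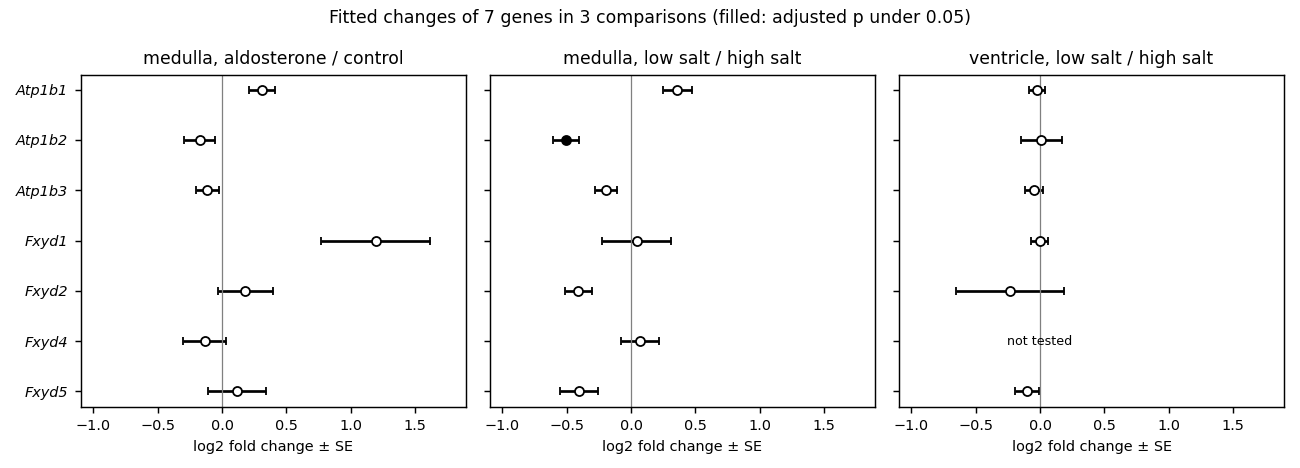
Log2 fold change with SE (edgeR) of each gene for aldosterone over control in medulla, low over high salt in medulla and low over high salt in ventricle, 4 libraries a group, with filled points where the adjusted p was under 0.05. Atp1b2 on low salt in medulla is the filled point, and Fxyd4 in ventricle was not tested.

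In ventricle no member passed on low salt, where 8 of 15473 genes (0.0517%) did. In all 0.0129% of genes were called higher and 0.0388% lower on that diet. At an unadjusted p under 0.05, 10.6% of all genes passed with edgeR but no member did, and with DESeq2 2.23% of all genes had an adjusted p under 0.05 but none of the members did. All 7 genes overlapped between the diets, where 1.85% of genes were higher and 2.50% lower without overlap. Atp1b1 was at 427, 424, 463 and 485 CPM on low salt, against 435, 417, 519 and 500 CPM on high salt (log2 -0.02 ± 0.06 SE, edgeR adjusted p = 0.928). Fxyd1 was at 454, 412, 432 and 421 CPM on low salt, against 436, 418, 443 and 463 CPM on high salt (log2 -0.003 ± 0.066 SE, edgeR adjusted p = 0.991). For both genes the group means differed by less than 1 SD.

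Atp1b2 in ventricle was at 17.5, 10.8, 13.8 and 11.7 CPM on low salt, against 12.2, 13.8, 15.1 and 13.3 CPM on high salt, and Atp1b3 at 52.6 to 61.1 CPM and 55.2 to 66.8 CPM. Fxyd5 was at 6.69 to 9.70 CPM on low salt, against 8.65 to 9.32 CPM on high salt. Adjusted p-values with edgeR were 0.988, 0.828 and 0.731 for Atp1b2, Atp1b3 and Fxyd5. Fxyd2 was at 8.14, 23.0, 4.11 and 3.63 CPM on low salt, against 10.9, 35.1, 2.97 and 4.34 CPM on high salt (edgeR adjusted p = 0.871), with the batch split described above in both diets. Fxyd4 had 0 to 10 counts a library on low salt, against 1 to 86 on high salt, and did not pass the filter on low counts.

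The responses were also compared directly. The low-salt response of medulla minus that of ventricle gave 0 members past the threshold with edgeR, where 0.830% of 19408 genes passed. At an unadjusted p under 0.05 it gave 3 members, Atp1b1, Atp1b2 and Fxyd4 (14.4% of all genes), and DESeq2 called 0. Fxyd4 failed the filter on low counts in ventricle alone and entered this fit only through its medulla counts. Its place among the 3 is thus no support for a difference between responses. The differences of log2 fold changes were 0.39 ± 0.13 for Atp1b1 (adjusted p = 0.174), -0.51 ± 0.20 for Atp1b2 (adjusted p = 0.259) and 2.31 ± 0.74 for Fxyd4 (adjusted p = 0.17), which rests on the few ventricle counts given above. Single ventricle libraries decide the Fxyd4 difference: it was 0.30 without replicate 2 of the high-salt ventricles (edgeR adjusted p = 0.91) and 3.08 without replicate 1 of them (edgeR adjusted p = 0.00312). In batch 2 of the ventricles the 2 low-salt libraries held 0 Fxyd4 counts and the 2 high-salt libraries held 2, too few for a difference without batch 1. The aldosterone response minus the low-salt response of medulla gave 0 members, where 0.0528% of 18938 genes passed, with 2 members and 13.1% of all genes at an unadjusted p under 0.05 and 0 members called by DESeq2. For Atp1b1 this difference was -0.07 ± 0.15 (edgeR adjusted p = 0.893), and for Fxyd2 it was 0.57 ± 0.25 (edgeR adjusted p = 0.352). Across the medulla groups the mean Atp1b1 level was highest with aldosterone (3514 ± 426 CPM), followed by controls (2813 CPM), low salt (2604 ± 225 CPM) and high salt (2006 ± 226 CPM, SD, n = 4), and controls differ from low salt by less than 1 SD. This order runs across the aldosterone and the salt experiment, whose libraries read as female and as male by Xist and Y-linked genes. Controls and high-salt rats both ate 0.4% Na, and their means lie 807 CPM apart, against 701 CPM between aldosterone and controls and 598 CPM between low and high salt.

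Other genes of the family and its partners were read from fixed lists. Over all genes tested 0 passed with aldosterone, 2.46% on low salt in medulla and 0.0517% in ventricle. Little can thus be read from a list without a call in these comparisons. Of 4 further beta and FXYD genes, 2 were tested in the aldosterone and the medulla low-salt comparisons and 3 in ventricle, and none passed. Fxyd3 and Fxyd6 are FXYD proteins of epithelia and of nervous tissue. Fxyd6 averaged 44.6 ± 24.1 CPM with aldosterone, against 27 ± 8.44 CPM in controls (edgeR adjusted p = 0.611), and Fxyd3 averaged 7.85 ± 4.32 CPM with aldosterone, against 3.48 ± 0.681 CPM in controls (SD, n = 4 each, edgeR adjusted p = 0.448). In the aldosterone libraries Fxyd3 was at 11.5, 11.6, 3.3 and 5.02 CPM, and 6 urothelium markers summed to 136, 157, 23.5 and 50.6 CPM, high in the same replicates 1 and 2, against 31.3 to 69.8 CPM in controls. Their part in the Fxyd3 values was not tested. Between tissues Fxyd7, an FXYD gene of brain, was lower in medulla (log2 -6.22 ± 0.68 SE, edgeR adjusted p = 2.3e-05), with at most 2 counts a library in medulla, against 0.466 to 1.03 CPM in ventricle. Fxyd6 was lower there too (log2 -0.60 ± 0.21 SE, edgeR adjusted p = 0.0265). Of the related H,K-ATPase genes, Atp4a was lower in medulla (log2 -5.44 ± 0.58 SE, edgeR adjusted p = 1.76e-05). It was near the floor in both tissues, with 0 to 2 counts a library in high-salt medulla, against 13 to 23 (0.466 to 0.756 CPM) in high-salt ventricle. None of the H,K-ATPase genes tested passed in the other comparisons.

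Of 17 partners and regulators of the pump, none passed with aldosterone (14 tested) or on low salt in medulla or ventricle (15 tested each). The shares of all genes there were 0, 2.46% and 0.0517%. Between tissues 7 of 15 were higher and 7 lower in medulla, beside 41.1% and 36.7% of all genes. Sgk1, a kinase that raises Na transport, was higher (log2 4.52 ± 0.31 SE), as was Ppp1r1b, the phosphatase inhibitor DARPP-32 (4.75 ± 0.52 SE), and Prkaca, the catalytic subunit of protein kinase A, was lower (-3.33 ± 0.08 SE). Of 25 genes of Na entry and Na-coupled transport, 24 were tested in each medulla comparison. On low salt, where 1.09% of all genes were called higher, 1 passed: Scnn1a, which encodes ENaC alpha of the epithelial Na channel, with a log2 fold change of 2.66 ± 0.25 (SE, edgeR adjusted p = 0.0103). With aldosterone 0 passed, as of all genes, and Scnn1a stood at 1.26 ± 0.25 (log2, SE; edgeR adjusted p = 0.182). In ventricle 18 were tested and 0 passed, where 0.0517% of all genes did. Between tissues 16 of 25 were higher and 6 lower in medulla, among them Slc9a4, an Na/H exchanger (log2 9.14 ± 0.57 SE), and Slc8a1, an Na/Ca exchanger, which was lower (-3.89 ± 0.14 SE). Of 12 corticosteroid-induced genes, 5 were higher and 0 lower on low salt in medulla, beside 1.09% and 1.37% of all genes. With aldosterone 0 of them passed and in ventricle 0, beside 0 and 0.0517% of all genes. Between tissues 5 were higher and 6 lower in medulla than in ventricle, beside 41.1% and 36.7%. In the tests of a difference between responses Scnn1a, the taurine transporter Slc6a6 and the repressor Zbtb16 were the listed genes past the threshold, all for medulla minus ventricle, with log2 differences of 3.55, 1.40 and 2.51.

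The genes whose log2 CPM ran most like each member, after subtracting the mean of each table, were ranked by Pearson's r as a description. All points share library, depth and tissue makeup. Treatment and batch were not removed, so differences between groups and batches of a table enter r. Each nearest gene is the highest r of a search over many genes and few libraries. How high r runs by chance in such a search was not tested, so a high r alone says little. Over 16 medulla libraries and 11517 genes, the nearest to Atp1b1 was Rbm45 (r = 0.91), to Atp1b2 Tac4 (0.89), to Atp1b3 Sqor (0.85), to Fxyd2 Gabarapl2 (0.94), to Fxyd4 Arhgdib (0.89) and to Fxyd5 Psenen (0.91). The next nearest were Dzip1l, Hace1, Ciapin1, Glrx5, Fam3d and Cd34, at 0.85 to 0.91. Among members and markers in these libraries, Fxyd2 ran with Slc12a1, the Na-K-Cl transporter of the thick ascending limb (r = 0.74), against which Fxyd4 ran the other way (-0.70). Atp1b1 stood at -0.80 to Slc14a2, -0.51 to Aqp2, the water channel of the collecting duct, 0.59 to Umod and 0.50 to Slc12a1. Atp1b1 and Slc14a2 separated the medulla diets in opposite directions, as given above, and that group difference is part of their r. Fxyd2 and Fxyd4 stood at -0.54, and Atp1b1 at -0.36 to Atp1b2 and -0.46 to Atp1b3. Over the 8 ventricle libraries and 10135 genes, the nearest were Ptger4 for Atp1b1 (0.97), Mrps27 for Atp1b2 (0.97), Tmem127 for Atp1b3 (0.99), Gatb for Fxyd1 (0.97), Plau for Fxyd2 (0.99) and Shc1 for Fxyd5 (0.99). Fxyd2 in ventricle stood at 0.96 to Umod, the thick ascending limb protein uromodulin, with the batch split described above left in.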

How the data were processed

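Per the labels' protocols, a stranded mRNA kit was used and libraries were sequenced from 1 end. Salmon, Trimmomatic, MultiQC and bcl2fastq 2.19 were used, per the submitters' processing notes. Genome build, annotation and strand setting: not given in the sources used here. Thus reads of Atp1b1 and the overlapping gene Nme7 (19.5 to 28.0 CPM in medulla) may be shared. The authors deposited expected counts (estimated reads per gene, not scaled) in 3 tables, which were rounded here. CPM are counts per 1000000 of the library total.

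Each table was fitted with edgeR 4.0.16 in R 4.3.3 (filterByExpr with a minimum count of 10, TMM, quasi-likelihood F test, batch as a term), with Benjamini-Hochberg adjustment over all genes tested and a threshold of 0.05. The tissue comparison had no batch term, and differences between responses were interactions over 16 libraries, each table and batch having its own intercept. Tissue and table cannot be told apart. An SE is the log2 fold change divided by the root of F. Replicates are separate rats. No 2 libraries of a group agreed within sampling noise (chi-square per gene 20.3 to 105 over 36 pairs). The fit was tested on simulated data.

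All 7 members are named whatever their values, with up to 4 called genes per list and direction and the 2 nearest genes by correlation (mean of 5 CPM or more, no LOC name). Members, lists and rules were chosen with earlier results of these data known. Alpha subunit genes and 1 gene of the Na transport list are not reported here, and alpha subunit genes were left out of the ranking of nearest genes after 1 had been seen high in it. Motifs, and shares over all 7 FXYD genes, were chosen after the files had been seen. Same-numbered libraries of medulla and ventricle on high salt deviated together (r of 0.25 to 0.33, 4 pairs), each nearest to its own number. Between the ventricle diets same-numbered libraries gave r of 0.15 to 0.24 (4 pairs), but only 1 of 4 was nearest to its own number. Libraries of the same batch with other numbers gave 0.20 to 0.29 there, so batch and pairing cannot be told apart. The main fits did not take the numbers as pairs, and the replicate as a block was an alternative. No member's call in those comparisons changed with the replicate as a block. Alternatives were DESeq2 1.42.0, other scalings and filters, no batch term, the block, each batch alone and each library left out.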

Additional observations from a re-analysis of the deposited data

Results flagged for a closer look

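Fxyd4 gave both flags, each for a library far from the other 3 of its group relative to their spread. In control medulla of the aldosterone experiment, replicate 1 was lowest at 1572 CPM, against 1748 to 1759 CPM in the other controls. The coefficient of variation of that group was 5.36%, so the difference is small and the flag reflects the narrow spread of the others. In ventricle on high salt, replicate 2 was highest at 2.83 CPM, against 0.0336 to 0.331 CPM in the others. That library also had the highest thick ascending limb markers (121 CPM) and collecting duct markers (45.0 CPM) of the 8 ventricle libraries. The rule was run on each of the 7 genes in each of the 6 groups. Chance flags about 1 in 20 such sets of 4 libraries, so either flag or both can be due to chance in a search of this size.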

How the results depend on the processing

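Of 759 values of single members under alternatives, 696 kept their direction and side of the threshold, 13 lost and 8 gained a call, and 42 changed sign. On low salt in medulla 1 member was called. DESeq2 called 3, and no filter, no batch term, the replicate block, batch 1 alone, batch 2 alone and each of the 8 fits without 1 library (0 to 0) called 0. With the replicate block the adjusted p of Atp1b2 was 0.107 (30 genes higher and 22 lower over all genes, against 201 and 253). Replicate numbers did not pair these libraries (r of -0.05 to 0.32, 1 of 4 above 0.1). Aldosterone numbers gave -0.04 to 0.4, and the block called 0 members there. DESeq2 called 1 member with aldosterone. For the difference of low-salt responses, leaving out 1 library gave 0 to 1 members, the 1 without high-salt ventricle replicate 1.

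Signs changed as follows, all log2 and the causes not tested. On low salt in medulla, Fxyd4 was -0.086 with edgeR on batch 1 alone and -0.102 by the mean difference there, and Fxyd1 -0.042 and -0.022 in batch 2. In ventricle, batch 2 alone gave -0.171 and -0.158 for Atp1b2, 0.073 and 0.082 for Atp1b3, and 0.078 and 0.093 for Fxyd2. Batch 1 gave 0.018 for Fxyd1, and the block -0.011 for Atp1b2. Between tissues Atp1b2 was -0.004 by DESeq2 and by its size factors, -0.497 on low salt and -0.063 without batch 1 of the ventricles, and Fxyd5 was 0.522 by library size. Without a batch term the response difference of Fxyd2 was 0.006. Leaving out 1 library at a time, values that changed sign ranged as follows. With aldosterone Fxyd5 ran over -0.075 to 0.278. On low salt in medulla Fxyd1 ran over -0.120 to 0.217 and Fxyd4 -0.016 to 0.210. On low salt in ventricle Atp1b2 ran over -0.185 to 0.108, Fxyd1 -0.054 to 0.030, Fxyd2 -0.540 to 0.282 and Atp1b1 -0.060 to 0.020. Between tissues Atp1b2 ran over -0.084 to 0.065. In the difference of low-salt responses Fxyd2 ran over -0.699 to 0.132 and Fxyd1 -0.123 to 0.220. In aldosterone minus low salt Atp1b1 ran over -0.133 to 0.032 and Atp1b3 -0.007 to 0.128.
The batch-alone edgeR fits and the fit without batch 1 of the ventricles were chosen after seeing the data. Counts per length could not be computed, since no transcript lengths were used here. DESeq2 gave no adjusted p for Fxyd2 between tissues. Fxyd1 in medulla and Fxyd4 in ventricle rest on under 100 counts a library.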
